A study of Mus musculus with 12 samples.

Results

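The enzymes described here are 8 genes of the pentose phosphate pathway and of cytosolic NADPH production, *G6pdx*, *Pgls*, *Pgd*, *Rpia*, *Taldo1*, *Tkt*, *Me1* and *Idh1*, chosen by name and not by their measured values. They were found on the array through the accession or gene name of each probe. Probes were matched for 7 of the 8, among 32301 genes or transcripts on the array, and *Rpia*, the ribose 5-phosphate isomerase, was not analysed here. All 7 measured genes were well above background on all 12 arrays, and they are 7 of the 22134 genes that were tested.

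RNA came from bone marrow-derived macrophages (BMDMs) of C57BL/6 mice aged 8 weeks, which were grown from marrow with M-CSF over 7 days. WT mice were compared with Keap1 CKO mice, which are *Keap1* flox/flox::LysM-Cre and are called KpCKO, a cross that deletes *Keap1* in cells of the myeloid lineage. Cells of each genotype were left untreated (Con), given LPS and IFNγ for 6 h (M1) or given IL-4 for 6 h (M2), which makes 6 groups of 2 arrays. Culture 1 came from 1 male mouse of each genotype and culture 2 from 1 female mouse of each genotype, so sex cannot be told apart from culture, and each mouse gave 3 arrays. The labels do not say whether WT mice carried the floxed allele or Cre. Each level below is the log2 signal of a gene's brightest probe minus the 75th percentile of its array, so levels of different genes are not compared with each other.

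The pentose phosphate pathway branches from glycolysis at glucose 6-phosphate. Its oxidative branch makes NADPH through glucose-6-phosphate dehydrogenase (*G6pdx*) and 6-phosphogluconate dehydrogenase (*Pgd*), with 6-phosphogluconolactonase (*Pgls*) between them, and ends in ribulose 5-phosphate. Its non-oxidative branch interconverts sugar phosphates through transketolase (*Tkt*) and transaldolase (*Taldo1*) and leads back to glycolysis. Malic enzyme 1 (*Me1*) and isocitrate dehydrogenase 1 (*Idh1*) make NADPH in the cytosol from malate and isocitrate. NADPH serves glutathione and thioredoxin reduction, lipid synthesis, and the NADPH oxidase and nitric oxide synthase of macrophages. Several of these enzymes are known targets of Nrf2, the transcription factor whose degradation depends on Keap1.

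*Keap1* itself was lower in KpCKO in both cultures of each stimulus. Its log2 level was 3.26 and 3.16 in WT Con, 4.28 and 4.80 in WT M1 and 3.07 and 2.85 in WT M2 (cultures 1 and 2), against 1.79 and 1.71, 2.61 and 3.04, and 1.37 and 0.94 on the KpCKO arrays of the same stimuli. The mean difference over the 3 stimuli was −1.66 (limma's adjusted p = 0.000699). The sources used here do not say whether the probe lies in the floxed part of the gene. The 5 macrophage markers on the array (of 6 listed) were well above background on all 12 arrays, and their signals were summed in multiples of each array's 75th percentile. The KpCKO sums lay below those of WT in Con (314 to 354 against 378 to 424) and M1 (439 to 503 against 548 to 746), with overlap in M2 (348 to 395 against 386 to 445). Of the other marker lists, that of neutrophils (5 of 6 on the array, *Elane* above background on no array) summed to between 3.07 and 16.0 and that of stromal cells (3 of 3) to between 21.7 and 51.6, with the genotypes overlapping in every stimulus. The lists of T, B, NK, dendritic and erythroid cells (4 of 4, 3 of 3, 2 of 2, 3 of 3 and 2 of 3 genes on the array) each summed to at most 0.579 on any array, with *Ms4a1* of B cells above background on none. The part of any of these cells in the results was not tested. In bulk RNA, fewer cells of a type and less RNA per cell cannot be told apart.

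The 4 arrays of a stimulus shared a slide, and the M2 slide was scanned on another day than the other slides. WT and KpCKO were therefore compared within a slide, while stimulus and slide cannot be told apart. The signal at the 75th percentile ranged from 548 to 757 in WT M1, from 787 to 906 in KpCKO M1, and elsewhere from 966 to 1166, so that the M1 differences depend more than the others on how arrays were scaled.

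As several of the genes moved together between the genotypes, the promoters of all 8 (300 bases, from 250 before to 50 after each annotated start, RefSeq, GRCm38.p6) were searched for TGACNNNGC and TGAGNNNGC, the core of the antioxidant response element that Nrf2 binds, on both strands. The 2 forms differ in 1 letter, so a stretch read in 1 direction is counted as at most 1 of them. Windows of 5 of the 8 genes held a match, against 30.8% of 27025 genes and 27.8% of 32851 windows in the whole table. The 4 stretches below are shown since they lie at the most upstream start that the table gives for *Me1*, *Idh1*, *G6pdx* and *Taldo1*. They are written on the strand of the gene, with the match in capitals, and a match in *G6pdx* and *Idh1* reads on the opposite strand. The fifth match, in *Pgd*, lay only in the window of an annotated start further downstream. No match was in the windows of *Tkt*, *Pgls* and *Rpia*, nor in those of *Keap1* and *Nqo1*, which says only that these letters are not in these windows.
Me1, chr9:86695897-86695935, minus strand, match starting 6 bases before the start: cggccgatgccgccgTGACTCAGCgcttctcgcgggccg
Taldo1, chr7:141391924-141391962, plus strand, match starting 221 bases before the start: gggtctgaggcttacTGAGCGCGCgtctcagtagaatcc
G6pdx, chrX:74428914-74428952, minus strand, match starting 57 bases before the start: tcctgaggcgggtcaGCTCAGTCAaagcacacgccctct
Idh1, chr1:65186464-65186502, minus strand, match starting 8 bases before the start: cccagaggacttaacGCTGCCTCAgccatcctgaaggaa

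The comparison of KpCKO with WT asks how the loss of *Keap1* changed the levels of these enzymes. Over the 3 stimuli, 5 of the 7 genes were higher in KpCKO by limma's test at an adjusted p under 0.05 and none was lower, whereas 8.67% of all genes tested were higher and 8.58% lower. *Me1* had the largest difference, followed by *Taldo1*, *Pgd*, *Idh1* and *Tkt*. The first enzymes of the oxidative branch, *G6pdx* and *Pgls*, did not pass the test. The 7 genes had a median log2 difference of 0.57, against −0.02 for all genes. The main model had no term for mouse, so its intervals and p-values measure the spread of arrays, not that between mice. Each genotype had 2 mice, with 3 arrays from each.

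**Figure D1:**
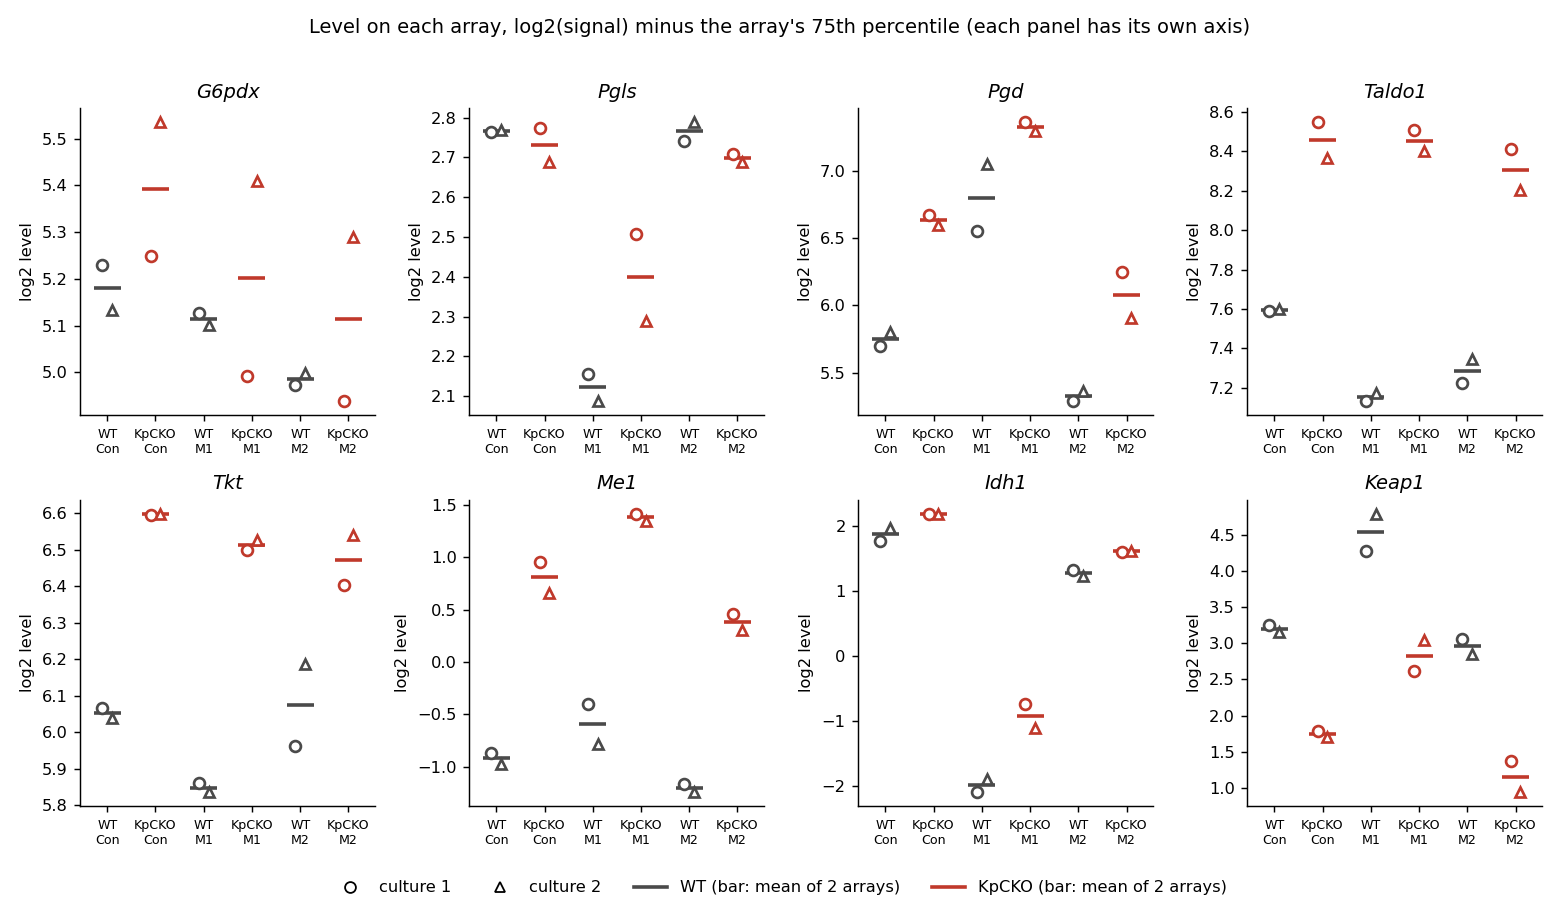
Log2 level of the 7 enzyme genes and *Keap1* on each of the 12 arrays, as log2 signal minus the array's 75th percentile, with an axis of its own for each gene. Circles are culture 1, triangles culture 2 and bars the mean of the 2 arrays of a group; *Me1*, *Taldo1* and *Tkt* lie higher on all 6 KpCKO arrays than on any WT array, and *Idh1* lies lowest on the 4 M1 arrays.

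*Me1*, the cytosolic malic enzyme, lay at −0.87 and −0.97 in WT Con, −0.40 and −0.78 in WT M1, and −1.17 and −1.25 in WT M2 (cultures 1 and 2). On the KpCKO arrays it lay at 0.96 and 0.66 in Con, 1.42 and 1.35 in M1, and 0.46 and 0.31 in M2. The lowest KpCKO array was above the highest WT array. The difference over the 3 stimuli was 1.76 on the log2 scale, or 3.40-fold (95% interval 1.61 to 1.92, limma's adjusted p = 2.57e-05), with 1.76 in culture 1 and 1.77 in culture 2. Each stimulus gave a difference that passed the test, with 1.73 in Con (adjusted p = 0.00117), 1.97 in M1 (adjusted p = 0.000525) and 1.59 in M2 (adjusted p = 0.0015). For scale, *Nqo1*, a well-known Nrf2 target that codes for a quinone reductase, differed by 3.42 over the 3 stimuli (adjusted p = 1.38e-06).

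*Taldo1*, the transaldolase, lay between 7.13 and 7.60 on the 6 WT arrays and between 8.20 and 8.55 on the 6 KpCKO arrays. In Con it was at 7.59 and 7.60 in WT and at 8.55 and 8.37 in KpCKO. In M1 it was at 7.13 and 7.17 in WT and at 8.51 and 8.40 in KpCKO, and in M2 at 7.22 and 7.34 and at 8.41 and 8.20. The genotypes did not overlap on any stimulus. The difference over the 3 stimuli was 1.06, or 2.09-fold (95% interval 0.91 to 1.22, adjusted p = 0.000199). It passed the test at 0.86 in Con (adjusted p = 0.0144), 1.30 in M1 (adjusted p = 0.00154) and 1.02 in M2 (adjusted p = 0.0086). Leaving out any 1 of the 4 Con arrays ended the call in Con (0.79 to 0.94, adjusted p up to 0.138), as did a normexp background correction (0.90, adjusted p = 0.0642), and leaving out culture 1 of WT M2 (0.92, adjusted p = 0.0821) or of KpCKO M2 (0.93, adjusted p = 0.0718) ended that in M2.

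*Tkt*, the transketolase, which shares sugar substrates with transaldolase, lay at 6.07 and 6.04 in WT Con, 5.86 and 5.84 in WT M1 and 5.96 and 6.19 in WT M2. Both KpCKO Con arrays were at 6.60, with 6.50 and 6.53 in M1 and 6.40 and 6.54 in M2. Again every KpCKO array was above every WT array, by a smaller step than for *Taldo1*. The difference over the 3 stimuli was 0.54, or 1.45-fold (95% interval 0.40 to 0.67, adjusted p = 0.00188). It was 0.54 in Con, just past the threshold (adjusted p = 0.0492), 0.66 in M1 (adjusted p = 0.01) and 0.40 in M2 (adjusted p = 0.132). The call in Con was lost when any 1 of the 12 arrays was left out (adjusted p from 0.0625 to 0.284) and with the authors' matrix (0.55, adjusted p = 0.0501). That in M1 was lost without culture 2 of WT M1 (0.62, adjusted p = 0.0548) or culture 1 of KpCKO M1 (0.65, adjusted p = 0.0612). A dimmer probe of *Tkt*, tested on its own, differed by 0.94 over the 3 stimuli (adjusted p = 0.00212).

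*Pgd*, which makes the NADPH of the last oxidative step, lay at 5.70 and 5.80 in WT Con, 6.55 and 7.05 in WT M1 and 5.29 and 5.37 in WT M2. Its KpCKO arrays were at 6.67 and 6.59 in Con, 7.36 and 7.29 in M1 and 6.25 and 5.91 in M2. Within each stimulus the KpCKO arrays were the higher ones in both cultures. The difference over the 3 stimuli was 0.72, or 1.65-fold (95% interval 0.47 to 0.97, adjusted p = 0.00607), with 0.91 in culture 1 and 0.52 in culture 2. In the single stimuli it did not pass the test, at 0.88 in Con (adjusted p = 0.0732), 0.53 in M1 (adjusted p = 0.0963) and 0.75 in M2 (adjusted p = 0.123). After quantile normalization the M1 difference was 0.78 (adjusted p = 0.0181), and it was 0.25 without culture 1 and 0.81 without culture 2 of WT M1 (adjusted p = 0.325 and 0.0533). Another probe of *Pgd* passed the test in both Con and M1, at 0.88 (adjusted p = 0.0194) and 0.53 (adjusted p = 0.0326).

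*Idh1*, the cytosolic isocitrate dehydrogenase, lay at 1.78 and 1.97 in WT Con and at 2.19 and 2.19 in KpCKO Con. In M1 it was at −2.10 and −1.89 in WT and at −0.74 and −1.11 in KpCKO, and in M2 at 1.32 and 1.23 and at 1.60 and 1.62. KpCKO was higher in both cultures of each stimulus, and the step was widest in M1. The difference over the 3 stimuli was 0.57, or 1.49-fold (95% interval 0.36 to 0.78, adjusted p = 0.00672). In M1 it was 1.07, or 2.10-fold (adjusted p = 0.00798), with 1.36 in culture 1 and 0.78 in culture 2, and with a normexp background correction 0.73 (adjusted p = 0.0584). This stood against 0.32 in Con (adjusted p = 0.427) and 0.33 in M2 (adjusted p = 0.389). The larger difference in M1 than in Con, 0.75, did not pass the test (95% interval 0.25 to 1.26, adjusted p = 0.19).

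*G6pdx*, the X-linked dehydrogenase that commits glucose 6-phosphate to the pathway, lay between 4.94 and 5.53 on all 12 arrays. WT arrays were at 5.23 and 5.13 in Con, 5.13 and 5.10 in M1 and 4.97 and 5.00 in M2, and KpCKO arrays at 5.25 and 5.53, 4.99 and 5.41, and 4.94 and 5.29. Both genotypes were close in culture 1, from male mice, while KpCKO was higher in culture 2, from female mice. The KpCKO difference was 0.02, −0.13 and −0.03 in Con, M1 and M2 of culture 1 and 0.40, 0.31 and 0.29 in culture 2. The mean over the 3 stimuli was 0.14 (95% interval −0.07 to 0.35, adjusted p = 0.309). With 1 mouse per genotype in each culture, sex, culture and mouse cannot be told apart here. *G6pd2*, a retrogene copy of *G6pdx* so alike in sequence that signals may be shared, has a probe of its own and differed by 0.05 (adjusted p = 0.78).

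*Pgls*, the lactonase, lay at 2.76 and 2.77 in WT Con, 2.16 and 2.09 in WT M1 and 2.74 and 2.79 in WT M2. KpCKO arrays were at 2.77 and 2.69 in Con, 2.51 and 2.29 in M1 and 2.71 and 2.69 in M2. The genotypes were close in Con and M2, and KpCKO was higher in both cultures of M1. The difference was 0.06 over the 3 stimuli (95% interval −0.08 to 0.19, adjusted p = 0.515) and 0.28 in M1 (adjusted p = 0.0987).

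**Figure D2:**
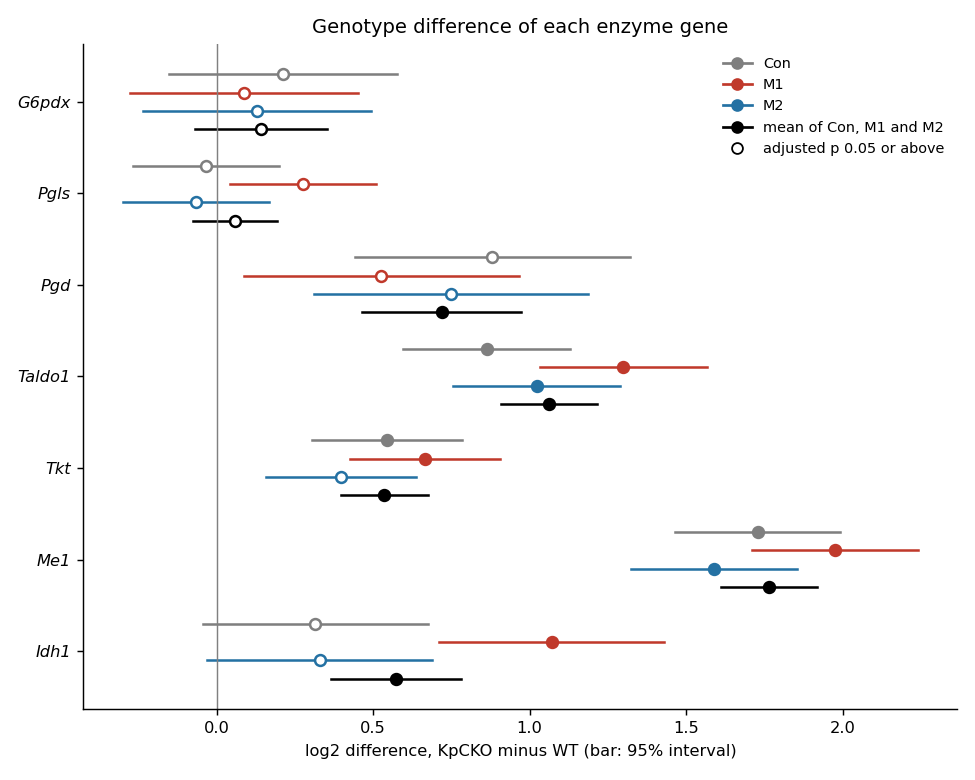
Log2 difference of KpCKO minus WT for each enzyme gene in Con, M1 and M2 and as their mean, with 95% intervals of limma's model. Filled points passed an adjusted p of 0.05; the intervals of *Me1* start at 1.32 or higher, while those of *G6pdx* all include 0.

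Counted by stimulus, 3 of the 7 genes were higher in KpCKO Con (*Me1*, *Taldo1*, *Tkt*), 4 in M1 (the same genes and *Idh1*) and 2 in M2 (*Me1*, *Taldo1*), and none was lower in any. Over all genes tested, 1.41% were higher and 0.818% lower in Con, 7.55% and 8.72% in M1, and 1.31% and 0.633% in M2. These shares rest on single arrays, as the 492 genes called in Con became 99 without culture 1 of WT Con and the 429 in M2 became 67 without culture 1 of WT M2. In M1 this split depended on the scaling, with 1672 genes higher and 1931 lower in the values used here and 2036 and 1358 after quantile normalization. The counts by stimulus also rest on the shared spread of all 12 arrays. When only the 4 arrays of a slide were fitted, none of the 7 genes and no gene at all passed limma's test in Con, M1 or M2, where 3448, 5260 and 3627 of all genes had an unadjusted p under 0.05. With so few arrays and a culture block, that fit estimates the spread of a gene poorly. Its lack of calls therefore cannot tell whether the genotypes differed.

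The M1 comparison asks how the same enzymes differed after LPS and IFNγ, with stimulus and slide not told apart. In WT, *Pgd* and *Me1* rose and *Idh1*, *Pgls* and *Taldo1* fell by limma's test, so 2 of 7 genes were higher and 3 lower, where 34.4% of all genes were higher and 28.9% lower. *Idh1* had by far the largest change of the 7. All genes together had a median of 0.12 in WT (−0.08 after quantile normalization, 0.40 with normexp) and of 0.02 in KpCKO, and less this median the WT changes were −3.99 for *Idh1*, 0.93 for *Pgd*, −0.76 for *Pgls*, −0.56 for *Taldo1* and 0.21 for *Me1*.

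In WT, *Idh1* was lower in M1 than in Con, with a log2 difference of −3.87, or 14.6-fold (95% interval −4.23 to −3.51, adjusted p = 5.55e-06), and with −3.87 in culture 1 and −3.86 in culture 2. In KpCKO the difference was −3.11, or 8.64-fold (adjusted p = 1.81e-05). In both genotypes the 2 M1 arrays were below every Con and M2 array. In order of its mean level, *Idh1* was highest in KpCKO Con, then WT Con, KpCKO M2, WT M2, KpCKO M1 and WT M1, with the arrays of neighbouring groups not overlapping, although KpCKO and WT did not differ past the test in Con and M2.

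*Pgd* rose by 1.05, or 2.07-fold, in WT (95% interval 0.61 to 1.49, adjusted p = 0.00228) and by 0.69, or 1.62-fold, in KpCKO (adjusted p = 0.0183). These rises depended on the scaling, as after quantile normalization *Pgd* differed by 0.17 in WT (adjusted p = 0.346) and 0.17 in KpCKO (adjusted p = 0.355). In KpCKO the call was also lost without any 1 of the 4 arrays compared (0.63 to 0.76, adjusted p up to 0.102). *Me1* rose by 0.33 in WT (adjusted p = 0.0372) and by 0.57 in KpCKO (adjusted p = 0.00484). The WT call was lost without any 1 of 7 arrays, culture 1 or 2 of WT Con, culture 1 of WT M1 and each M2 array (0.21 to 0.37, adjusted p up to 0.19), and with no culture block (adjusted p = 0.132).

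*Pgls* fell by 0.64, or 1.56-fold, in WT (adjusted p = 0.00115) and by 0.33 in KpCKO (adjusted p = 0.027), a call lost without either KpCKO Con array or culture 2 of KpCKO M1 (adjusted p up to 0.156) and with no culture block (adjusted p = 0.0611). *Taldo1* fell by 0.44, or 1.36-fold, in WT (adjusted p = 0.0122) and differed by −0.003 in KpCKO (adjusted p = 0.984), which after quantile normalization were −1.33 (adjusted p = 4.43e-05) and −0.53 (adjusted p = 0.00355). Its WT call was lost without culture 2 of WT Con (−0.40, adjusted p = 0.0807) or culture 1 of WT M1 (−0.38, adjusted p = 0.0599), and with normexp (−0.35, adjusted p = 0.111). *Tkt* differed by −0.20 in WT and −0.08 in KpCKO and *G6pdx* by −0.07 and −0.19, none past the test, whereas after quantile normalization all 4 passed it, at −1.05, −0.63, −0.78 and −0.69. With that scaling 1 of the 7 genes was higher and 5 lower in M1 in either genotype. In the values used here KpCKO had 2 higher (*Pgd*, *Me1*) and 2 lower (*Idh1*, *Pgls*), where 24.8% of all genes were higher and 25.6% lower.

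**Figure D3:**
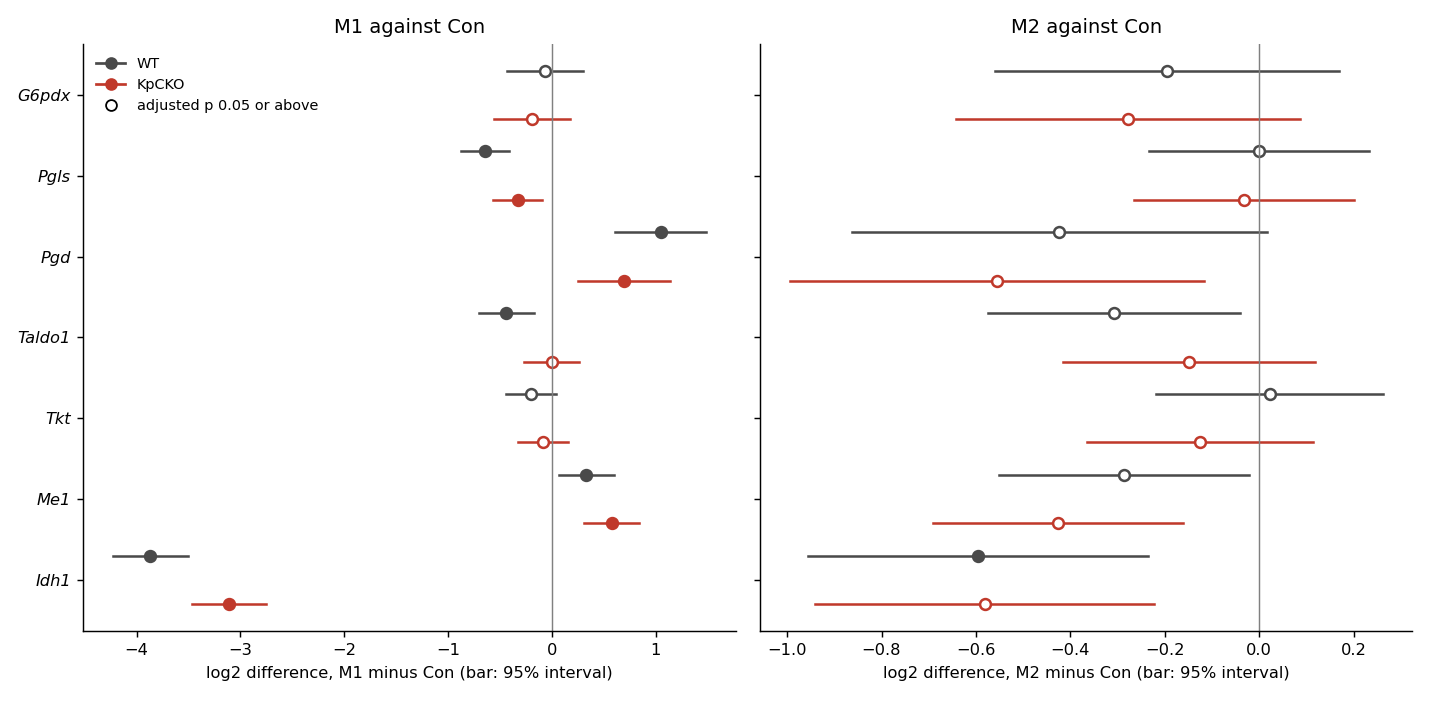
Log2 difference of M1 minus Con (left) and M2 minus Con (right) for each enzyme gene in WT and KpCKO, with 95% intervals of limma's model and filled points for an adjusted p under 0.05. The scales of the panels differ; the M1 differences of *Idh1* are −3.87 in WT and −3.11 in KpCKO, and every M2 difference lies between −0.60 and 0.02.

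The M2 comparison asks the same of IL-4, and the changes were small. In WT only *Idh1* passed the test, with a fall of 0.60, or 1.51-fold (95% interval −0.96 to −0.24, adjusted p = 0.0398), where 8.64% of all genes were higher and 8.3% lower. This call was lost without any 1 of the 8 Con and M2 arrays (−0.72 to −0.47, adjusted p up to 0.228) and with no culture block (adjusted p = 0.0598). In KpCKO *Idh1* differed by −0.58 (adjusted p = 0.0569), *Me1* by −0.43 (adjusted p = 0.0583) and *Pgd* by −0.56 (adjusted p = 0.109), each lower in both cultures. None of the 7 genes passed limma's test there, with 3 at an unadjusted p under 0.05 and 3 past the adjusted threshold after quantile normalization, and 5.73% of all genes were higher and 4.64% lower. The other probe of *Pgd* did pass it (−0.56, adjusted p = 0.0341). The WT values of *Me1* and *Pgd* were −0.29 (adjusted p = 0.128) and −0.42 (adjusted p = 0.166). *Taldo1* differed by −0.31 and −0.15, *G6pdx* by −0.20 and −0.28, *Tkt* by 0.02 and −0.13 and *Pgls* by −0.001 and −0.03 in WT and KpCKO.

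Whether the response to a stimulus differed between the genotypes was tested as the KpCKO response less that of WT. None of the 7 genes passed limma's test for M1 (0.117% of all genes did) or for M2 (0.00904% did). The 26 genes behind the M1 share became 547 without culture 1 of WT M1 and 0 without culture 2 of WT Con, any KpCKO Con array or any KpCKO M2 array, and 0 with normexp. At an unadjusted p under 0.05 there were 2 genes for M1, *Idh1* with 0.75 (adjusted p = 0.19) and *Taldo1* with 0.44 (95% interval 0.06 to 0.81, adjusted p = 0.259), both higher in both cultures, and 0 for M2. For M1 the other 5 differences lay between −0.35 (*Pgd*) and 0.31 (*Pgls*).

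Across the 12 arrays, *Taldo1* and *Tkt* had the most similar patterns among the pentose phosphate genes (Pearson's r = 0.950), *Me1* followed *Taldo1* (r = 0.904), and *Pgls* followed *Idh1* (r = 0.952). These are descriptions over arrays that share groups, mice and slides. *G6pdx* correlated with no other member above r = 0.475. Among 12146 named genes well above background on all arrays, the closest to *Me1* were *Panx1* (r = 0.986), *Prdx6* (0.980) and *Prdx6b* (0.978), and to *Taldo1* they were *Ptgr1* (0.990), *Gsta3* (0.986) and *Creg1* (0.981). *Gsta3* was also closest to *Tkt* (0.954), before *Ttc12* (0.954) and *Olfr1153* (0.951). *Pgd* was closest to *Zdhhc18* (0.977), *Blvrb* (0.975) and *Nit2* (0.972), *Idh1* to *Wdpcp* (0.998), *Cmas* (0.996) and *Zfp81* (0.995), and *Pgls* to *As3mt* (0.993), *Rad1* (0.990) and *Mrpl23* (0.988). No gene reached r = 0.9 with *G6pdx*, for which *Ccr2* (0.885), *Folr1* (0.853) and *S100a13* (0.845) were closest.

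Of 12 other genes of the pentose phosphate pathway and the use of ribose 5-phosphate, 10 were tested, as *Tktl1* and *Tktl2* were at background. In KpCKO against WT over the 3 stimuli, 1 of the 10 was higher and none lower, with a median of 0.11, which is close to the 8.67% of all genes that were higher. This was *H6pd*, an enzyme of the oxidative branch inside the endoplasmic reticulum, with a difference of 0.89 (adjusted p = 0.00125) that was 1.55 in M1 (adjusted p = 0.00217). In WT M1, 1 was higher and 6 lower (34.4% and 28.9% of all genes), among them *Shpk*, which phosphorylates sedoheptulose (−2.67, adjusted p = 0.000187), *H6pd* (−2.65, adjusted p = 1.67e-05), and *Prps2* (−1.50, adjusted p = 0.00019) and *Prps1* (−1.22, adjusted p = 0.0027), which turn ribose 5-phosphate into the precursor of nucleotides. With normexp *Shpk* was at −1.59 and *Prps2* at −0.90, both still past the test. In WT M2, *Prps1* instead rose by 4.09 (95% interval 3.56 to 4.62, adjusted p = 0.00032), and it rose by 3.53 in KpCKO M2 (adjusted p = 0.000895), while *H6pd* (−0.58) and *Pgm2* (−0.52), which converts pentose 1-phosphates, fell in WT, the latter not with normexp (−0.47, adjusted p = 0.116).

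Of 13 other genes listed as related to NADPH and NADP, not all of which make either, 12 were tested. None passed limma's test over the 3 stimuli in KpCKO against WT, where 8.67% of all genes were higher and 8.58% lower. At an unadjusted p under 0.05 there were 4, of which 1 was higher and 3 lower, and the median of the 12 was 0.12. By stimulus, none passed in Con or M2. In KpCKO against WT in M1, 2 were higher and 1 lower (7.55% and 8.72% of all genes), or 0 and 1 with normexp. In WT M1, 3 were higher and 4 lower, where 34.4% of all genes were higher and 28.9% lower. *Mthfd2*, a mitochondrial folate dehydrogenase, rose by 3.80 (adjusted p = 5.4e-05) and *Mthfd1l* by 1.26, whereas the cytosolic folate enzyme *Mthfd1* fell by 2.22 (adjusted p = 8.18e-06) and *Idh2*, the mitochondrial counterpart of *Idh1*, fell by 1.96 (adjusted p = 9.52e-06). In WT M2, *Mthfd1l* (0.68) and *Mthfd1* (0.43) were higher and *Me2*, a mitochondrial malic enzyme, was lower (−0.49), where 8.64% of all genes were higher and 8.3% lower. With normexp *Mthfd1* (0.32, adjusted p = 0.178) and *Me2* (−0.44, adjusted p = 0.0753) did not pass.

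Of 13 genes whose enzymes use NADPH, 12 were tested. Over the 3 stimuli 7 were higher in KpCKO and none lower (8.67% and 8.58% of all genes), with a median of 0.92. Among them were *Nqo1*, *Cbr3* (2.07), a carbonyl reductase, *Gsr* (1.35), which reduces glutathione, *Blvrb* (1.15), which reduces biliverdin and flavins, *Txnrd1* (0.99), which reduces thioredoxin, and *Fasn* (0.87), the fatty acid synthase, which is named outside the rule and was chosen after its value was seen. By stimulus, 6 were higher in KpCKO Con (1.41% of all genes) and 5 in KpCKO M2 (1.31%), and none was lower in either. In KpCKO against WT in M1, 6 were higher and 1 lower (7.55% and 8.72% of all genes), or 7 and 0 with normexp. In WT M1, 6 were higher and 5 lower (34.4% and 28.9% of all genes). *Nos2*, the inducible nitric oxide synthase, stayed at background (not well above it) on the Con and M2 arrays. Against the lowest signal well above background on the Con arrays, the M1 mean was at least 164-fold higher for WT and 66.6-fold for KpCKO. Limma's test used the Con values as measured, not this bound (adjusted p = 1.77e-06 and 2.97e-06). The WT log2 difference so tested was 8.96, and it was 4.50 with normexp (adjusted p = 0.000168). The size of the rise thus depended on the background correction, and the bounds hold only for the values used here. On the M1 arrays the mean log2 level of *Nos2* was 0.42 in WT and −1.07 in KpCKO. *Txnrd1* (2.66) and *Cybb* (2.41, or 1.59 after quantile normalization), a subunit of the phagocyte NADPH oxidase, rose as well, and *Por*, which passes electrons from NADPH to cytochrome P450 enzymes, fell by 3.31. In WT M2, 3 were higher and 5 lower (8.64% and 8.3% of all genes). *Fasn* (1.03) was among the higher, and *Gsr* (−1.65), *Por* (−1.29) and *Cybb* (−1.12) were among the lower.

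Upper glycolysis feeds glucose 6-phosphate into the pathway and takes up its products. By limma's test none of its 10 genes was higher in KpCKO over the 3 stimuli and 3 were lower (8.67% and 8.58% of all genes). The 3 were *Pfkl* (−0.85, adjusted p = 0.000304) and *Pfkp* (−0.20, adjusted p = 0.0468), which make phosphofructokinase, and *Tpi1* (−0.49, adjusted p = 0.00328). With normexp 1 was higher and 2 lower. The median was 0.03 over the 3 stimuli, 0.13 in Con, −0.29 in M1, where 4 of the 10 were lower (8.72% of all genes), and 0.15 in M2. *Pfkp* differed by 0.13 in Con and 0.16 in M2, neither past the test, and by −0.89 in M1 (adjusted p = 0.00303), and its mean over the 3 stimuli did not pass with quantile normalization (−0.11, adjusted p = 0.181) or normexp (−0.17, adjusted p = 0.204). In WT M1, 8 of the 10 were higher and none lower (34.4% and 28.9% of all genes). The 8 were led by *Pfkp* (4.50), the hexokinases *Hk3* (3.64) and *Hk2* (1.99, or 1.31 after quantile normalization), and *Pfkl* (1.80). With quantile normalization 6 were higher and 1 lower. That last gene was *Gpi1* (−0.63, adjusted p = 0.00494), the glucose-6-phosphate isomerase, chosen after its value was seen. In WT M2, *Pfkp* (0.95) and *Pfkl* (0.40) were higher (8.64% of all genes), *Pfkl* not with normexp (0.32, adjusted p = 0.147).

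**Figure D4:**
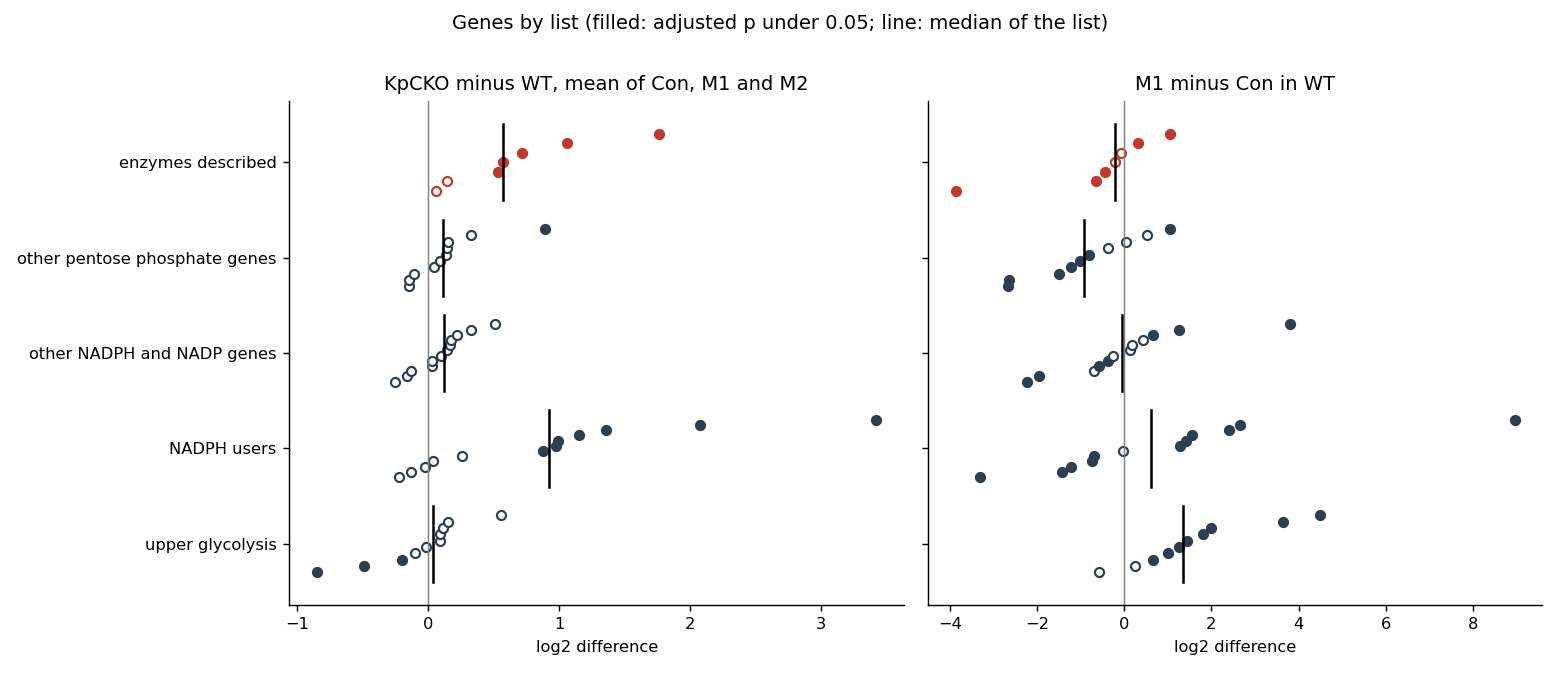
Log2 differences of the 7 enzyme genes and of the 10 to 12 tested genes of each related list, for KpCKO minus WT as the mean of Con, M1 and M2 (left) and for M1 minus Con in WT (right). Each point is a gene, filled where limma's adjusted p was under 0.05, and the line is the median of the list, which is 0.57 for the 7 enzymes on the left and −0.20 on the right.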

How the data were processed

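RNA labelled with Cy3 was hybridized by the authors to 1-colour Agilent arrays. Spots were read by Agilent Feature Extraction, version 10.7.3.1 per the file headers, and the deposited values used here are the background-subtracted intensity of 43379 spots besides controls on each array, with the deposited flags for spots well above background, saturated (0) or outliers (1840, left out here). The authors' matrix of log2 values was used as an alternative: it equals the same intensities scaled to the 75th percentile and centred per probe (40749 probes, slopes 0.99962 to 1.0004).

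From these, log2 intensity minus the array's 75th percentile was computed. Of 41174 probes, 26690 were named by accession and 5 by symbol (18221 symbols), a gene being represented by its brightest probe. Names come from a table of another genome build than the array's, so no gene coordinates are given apart from promoters. A gene was kept where some group had it well above background on both of its arrays (22343), and those with a missing value on any array were left out, as contrasts are then approximate (22134 tested).

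limma 3.58.1 in R 4.3.3 fitted the 6 groups with culture as a block (5 residual and 1.92 prior degrees of freedom) and Benjamini-Hochberg adjustment, and 10 contrasts were taken. The pairing by culture comes from the series description. Deviations from the group means correlated between groups of the same culture at r = 0.268 to 0.724 in 15 pairs (17210 genes). The number of arrays, 2 a group, limits the precision. The fit was tested on simulated data. The members, lists, tests and the rule for named genes (per list the genes past an adjusted p of 0.05, up to 6 of the largest over the 3 stimuli and up to 4 in M1 or M2 of WT, and the 3 closest genes by Pearson's r) were chosen with earlier results of these data known. Python 3.11.15, pandas 2.3.3 and matplotlib 3.10.9 made tables and plots.

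Alternatives were quantile normalization, a normexp correction with an offset of 50, the authors' matrix, other filters, the mean of a gene's probes, no culture block, mouse as a random block, trended and robust variances, only the groups compared, the methods' t-test, and each array left out in turn. Tests of single probes and centring on the median of all genes were chosen after seeing the data. Some genes of the lists are not reported here by name.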

Additional observations from a re-analysis of the deposited data

Results flagged for a closer look

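*Pgls* differed between the genotypes in opposite directions in M1 and M2, which drew attention because both cultures followed. KpCKO minus WT was 0.28 on the log2 scale in M1 (0.35 in culture 1, 0.20 in culture 2) and −0.066 in M2 (−0.03 and −0.10). Neither passed limma's test (adjusted p = 0.0987 and 0.845), and the difference between M1 and M2 was not tested. With a normexp background correction the M2 value was 0.024.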

How the results depend on the processing

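The 5 genes higher in KpCKO over the 3 stimuli passed the test under every alternative that gave it (21 for *Taldo1*, *Me1* and *Idh1*, 22 for *Pgd* and *Tkt*), with no replicate block and with each array left out included. The fit of only the groups compared and the methods' t-test, which rest on few arrays, did not give this comparison. No alternative left out a whole mouse, and with mouse as a random block the estimated correlation within a mouse was −0.051. How far these calls hold between mice was therefore not tested. Counts of the 7 genes past the threshold in the single comparisons moved. KpCKO against WT gave 3 in Con (1 with normexp, 4 with trended and robust variances and when genes had to be above background on every array, 1 to 3 with 1 array left out), 4 in M1 (5 with quantile normalization, 3 with normexp, 3 to 4) and 2 in M2 (3 with trended and robust variances, 1 to 2), and each was 0 with only the groups compared and by the methods' t-test after Benjamini-Hochberg adjustment. M1 against Con gave 5 in WT (3 with normexp, with only the groups compared and by the adjusted t-test, 3 to 5 with 1 array left out) and 4 in KpCKO (2 with normexp and with only the groups compared, 0 by the adjusted t-test, 2 to 4). M2 against Con gave 1 in WT (0 with normexp, with no filter, with no replicate block, with only the groups compared and by the adjusted t-test, 2 with trended and robust variances, 4 by the unadjusted t-test, 0 to 1 with 1 array left out). In KpCKO it gave 0 (3 with quantile normalization, 2 when genes had to be above background on all 12 arrays and with trended and robust variances, 1 by the unadjusted t-test, 0 to 2). The differences in response gave 0 under each alternative. With no replicate block, pairing by culture dropped, the counts were 2, 4, 2 and 5 for KpCKO against WT in Con, M1, M2 and over the 3 stimuli, 4 and 3 for M1 in WT and KpCKO, and 0 and 0 for M2.

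Values that changed sign were all of genes that had not passed the test in that comparison. With normexp, *Pgls* was at 0.024 in KpCKO against WT in M2, *Tkt* at −0.081 in M2 against Con in WT, and the differences in M2 response were 0.10 for *Pgd* and 0.052 for *Pgls*. With quantile normalization, *Tkt* was at −0.077 in M2 against Con in WT, and the differences in M1 response were 0.085 for *G6pdx* and 0.0056 for *Pgd*. The dimmer probe of *Tkt* gave 0.066 in WT M1, 0.37 in KpCKO M1 and 0.20 in KpCKO M2 against Con, and the mean of its probes 0.15 in KpCKO M1 and 0.035 in KpCKO M2. With 1 array left out, *G6pdx* ranged from −0.066 to 0.24 in KpCKO against WT in M1, from −0.22 to 0.086 in WT M1 against Con, and from −0.28 to 0.031 and −0.24 to 0.071 in the differences in M1 and M2 response. *Pgls* ranged from −0.073 to 0.0025 in KpCKO against WT in Con, from −0.063 to 0.061 in WT M2 against Con and from −0.092 to 0.031 in the difference in M2 response. *Tkt* ranged from −0.078 to 0.12 in WT M2 against Con, *Taldo1* from −0.079 to 0.073 in KpCKO M1 against Con, and the differences in M2 response from −0.36 to 0.090 for *Pgd* and from −0.11 to 0.14 for *Idh1*. The cause of these changes was not tested.

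The number of all genes called moved more. Over the 3 stimuli it was 3820, with 1761 under normexp and 1868 with no replicate block. In KpCKO against WT in M1 it was 3603, with 914 under normexp, 1206 with no replicate block and 833 without culture 1 of KpCKO M1. In Con it was 492 (99 to 458 with 1 array left out) and in M2 429 (67 to 426). Slide as a block was not run, because slide and stimulus are the same here.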
